A study of Apis mellifera with 9 samples.

Results

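Regions marked by H3K27me3 only in the ovaries of queen-right workers were examined in the honeybee Apis mellifera. H3K27me3 is the trimethylated form of lysine 27 on histone H3, mapped here by chromatin immunoprecipitation and sequencing (ChIP-seq). The peaks of 6 lists, 1 per ChIP sample, were merged into regions where they shared at least 1 base. A region belonged to the set if both queen-right worker lists had a peak in it and none of the 4 other lists did. This held for 461 of 53589 regions, or 0.860% of them. The calls themselves chose the set, so its number, widths and scores are given as a description and without a test.

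The 6 ChIP samples came from 3 groups of 2, all female ovary tissue. Queen-right workers lived in a standard hive with a laying queen and had an ovary score of 0, the score being a visual grade of ovary activity. Queen-less workers had an ovary score of 3 and were sampled 2 to 4 weeks after brood frames and bees were moved to a nucleus box without a queen, in which queen cells were destroyed. Queens were egg layers about 12 months old and had no ovary score. The queen lists carry the numbers 2 and 3 in their own names, while the labels number the samples 1 and 2, so queens 1 and 2 are named here by the sample each list was deposited under. Repeat immunoprecipitations of a sample were pooled, and the labels call the 2 samples of a group biological duplicates. How many bees went into a sample, and how old the workers were, is not given in the sources used here. Ovary state, presence of a queen, brood and housing all differ together between the worker groups and cannot be told apart.

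H3K27me3 is written by the Polycomb repressive complex 2 and is found over genes that are kept silent, often as long domains that stay marked through cell division. A worker ovary is held inactive by the pheromone of the queen, and it can start to make eggs once she is lost. A region marked only in the queen-right state is therefore one where the mark was called in inactive ovaries and not in either kind of active ovary. An ovary is a mixture of cell types, and both their presence and their proportions can differ between inactive and active ovaries. More cells with the mark and more of the mark per cell cannot be told apart in whole ovaries. The lists use scaffold names that share 0 entries with the gene table used here, which is of assembly Amel_HAv3.1, so neither genes nor sequence are given for any region.

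The 461 regions were small. Their median width was 445 bases, the middle 50% lay between 249 and 710 bases, and the range was 154 to 2368 bases. Together they held 246 kb, or 0.264% of all bases under merged regions. Only 44 of them (9.54%) reached 1 kb, against 41.1% of all merged regions. At the narrow end, 154 of them (33.4%) were under 300 bases, against 17.9% of all merged regions. Regions called in all 6 lists had a median width of 1681 bases, but they join peaks of more lists, which widens them by construction. The regions called only in queen-less workers (685 regions, median 363 bases) and only in queens (141 regions, median 349 bases) were narrow too, and the median over all regions called in fewer than 6 lists was 426 bases. Narrow width was thus common to all the partly called sets compared here.

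Each region consisted of 1 peak of queen-right worker 1 and 1 peak of queen-right worker 2. The median peak width was 355 bases in queen-right worker 1 and 290 bases in queen-right worker 2. The peak was wider in queen-right worker 1 in 291 regions (63.1%). Over the whole lists the order was the same, with medians of 652 and 496 bases. In 148 regions the peak of queen-right worker 2 lay inside that of queen-right worker 1, and in 61 regions the reverse held.

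The borders of the paired peaks mostly lay close together. The median distance between their starts was 32 bases and between their ends 33 bases. At the median region, 77.1% of the longer peak was shared with the shorter one. For 337 regions (73.1%) at least 50% of each peak lay under the other. In the remainder less than 50% of the longer peak was shared, and 10% of the regions shared 21.2% or less of it. The shorter peak was mostly covered, with a median of 99.5% shared, and 10% of the regions shared 75.2% or less of it. A low share of the longer peak thus often came with peaks of unequal length. Wide regions often had such a low share. The median shared part of the longer peak was 81.5% in regions under 300 bases, 80.0% in those from 300 to under 600 bases and 46.3% in those of 600 bases or more.

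The score of a peak is the value its peak caller gave it, from 10 upward, and it depends on sequencing depth. It was therefore read as a percentile within its own list. The regions lay low in both lists, at a median percentile of 25.9 in queen-right worker 1 and 13.9 in queen-right worker 2. Regions called in all 6 lists had medians of 67.7 and 65.7 in the same lists. Such a region can hold several peaks of a list, of which the highest-scoring was taken, so part of this difference is built in. In scores, the median was 24 in queen-right worker 1 (range 10 to 122) and 17 in queen-right worker 2 (range 10 to 160). Both percentiles were in the bottom 25% for 180 regions (39.0%), and both in the top 25% for 19 regions (4.12%). The lower of the paired percentiles had a median of 11.0, against 8.61 in regions called only in queen-less workers and 7.02 in those called only in queens. Low rank was thus shared by the regions private to each of the 3 groups.

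The percentiles of queen-right workers 1 and 2 rose together across the regions (Pearson r = 0.539, Spearman rho = 0.472, 461 regions, a description, since the regions come from the same pair of libraries). Regions under 300 bases had the highest median scores. The median scores in queen-right workers 1 and 2 were 30 and 25 for regions under 300 bases, 20.5 and 15 from 300 to under 600 bases, and 22 and 16 from 600 bases upward. A score of at least 20 in both lists was reached by 94 of the 154 regions under 300 bases (61.0%), by 29 of the 154 regions from 300 to under 600 bases (18.8%) and by 41 of the 153 regions of 600 bases or more (26.8%). Over all single peaks of the lists, those under 300 bases had the lowest medians, at 27 and 24 in queen-right workers 1 and 2, followed by 31 and 26 from 300 to under 600 bases and 38 and 28 from 600 bases upward. These are widths of peaks and those of the members are widths of merged regions.

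**Figure D1:**
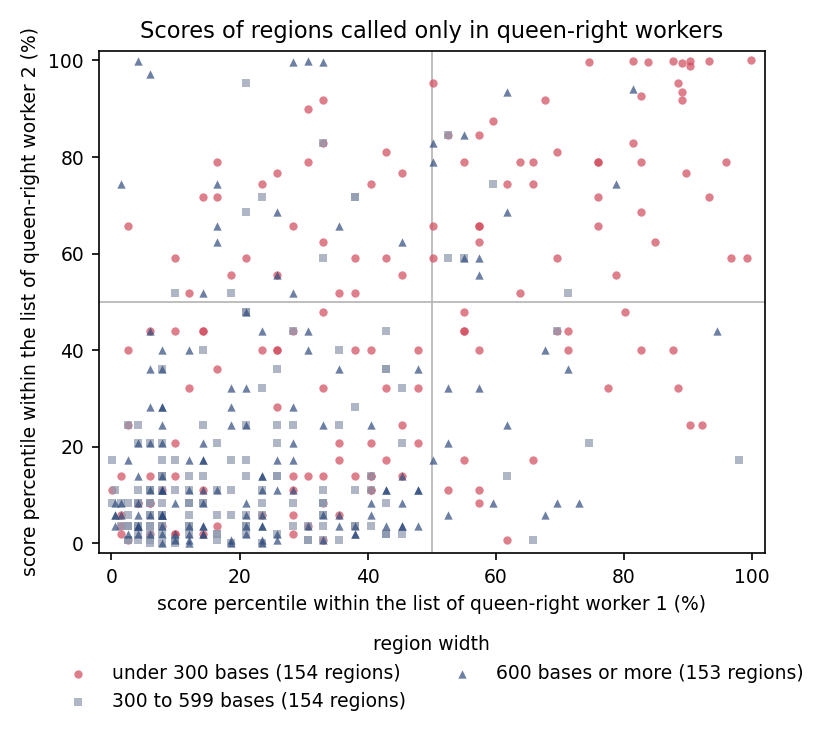
Score percentile of each of the 461 regions within the list of queen-right worker 1 (x axis, %) and of queen-right worker 2 (y axis, %); each symbol is 1 region, and its colour and shape give the region's width class. Most regions lie low in both lists, and the upper right corner holds mainly regions under 300 bases.

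The 5 regions named for the highest lower percentile were 183 to 227 bases wide. The last of these places was shared by 3 regions, 212 to 239 bases wide, of which the first by scaffold name is described. The first lay on scaffold NW_003378173.1 from 1622 to 1837, where queen-right workers 1 and 2 scored 122 and 160. The nearest peak of another list was 731 bases away, in queen 2, and the nearest region called in all 6 lists was 17520 bases away. It lay near the start of a scaffold with a span of 750 kb.

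The second region, on NW_003378449.1 from 41062 to 41244, scored 66 in queen-right worker 1 and 88 in queen-right worker 2, and it lay 1535 bases from the nearest peak of another list. The next, on NW_003378062.1 from 591222 to 591440, had scores of 61 and 64 and lay 2038 bases from such a peak. Another, on NW_003378085.1 from 2619260 to 2619486, had scores of 61 and 139 and lay 1764 bases from one. In these 3, as in the first, the peak of queen-right worker 1 lay wholly inside that of queen-right worker 2. One of the 3 tied, on NW_003377934.1 from 984199 to 984410, had scores of 59 and 47. Its peaks were offset by 35 bases at the start and 39 bases at the end, and the nearest peak of another list was 2189 bases away, part of a region called in all 6 lists.

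The 3 widest regions had another form, a long peak in queen-right worker 1 and a short, weak one in queen-right worker 2. On NW_003378135.1 from 248097 to 250464, the peak of queen-right worker 1 was 2125 bases long with a score of 18, and that of queen-right worker 2 was 297 bases long with a score of 10, the lowest value a list holds. These peaks shared 54 bases. On NW_003378085.1 from 121063 to 123088 the peaks were 2024 and 614 bases long, with scores of 24 and 12. On NW_003377936.1 from 18328 to 20337 they were 2006 and 754 bases long, with scores of 17 and 11. On NW_003378085.1 and NW_003377936.1 nearly the whole of the short peak lay inside the long one, and on NW_003378135.1 most of it lay outside.

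The lowest sum of scores was 24, in 5 members, and 1 of them lay on NW_003377872.1 from 1516063 to 1517022, where queen-right workers 1 and 2 scored 11 and 13. Its peaks shared only 10 bases. The fewest shared bases in any member were 2, on NW_003378149.1 from 73450 to 74428, with scores of 38 and 15. Just outside the rule, the nearest peaks of queen-right workers 1 and 2 that belonged to them alone and did not overlap lay 164 bases apart, on NW_003378012.1, where the peak of queen-right worker 1 ran from 89754 to 90233 with a score of 13. On the side of absence, the member closest to a peak of another list was 3 bases from one of queen-less worker 1, on NW_003378131.1 from 1035316 to 1035965, with scores of 16 and 12. Just outside, a region on NW_003378026.1 from 1147759 to 1149492 was left out because a peak of queen-less worker 1 with a score of 11 covered 23 bases of the queen-right worker peaks, which had scores of 12 in both lists. Such edge cases were few: of 1133 regions called in both queen-right workers and 1 other list, 12 (1.06%) had under 100 bases of that list over the queen-right worker peaks.

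The other list in these 1133 regions was mostly queen-less worker 2. It was the only other list in 999 regions (88.2%), while queen-less worker 1 was it in 59, queen 1 in 58 and queen 2 in 17. Queen-less worker 2 also covered the most sequence, 78.0 Mb, against 59.2 Mb in queen-less worker 1, 63.1 Mb in queen 1 and 53.5 Mb in queen 2. Its read depth is unknown and the part of its coverage in this result was not tested. Without queen-less worker 2 there were 1540 regions in the set in place of 461, and without any one of the other 3 lists that must lack a region there were 479 to 526. Leaving out a queen-right worker list changes the rule itself, since a region then needs a peak in only 1 such list, so a rise is built in. With queen-right worker 2 left out, 2610 regions were called in queen-right worker 1 and in none of the 4 others, and with queen-right worker 1 left out, 1346 were called in queen-right worker 2 and in none of the 4 others.

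The 999 regions shared with queen-less worker 2 were near the 461 in width and ranked higher in both queen-right workers. Their median width was 408 bases, and their median percentiles in queen-right workers 1 and 2 were 30.7 and 36.1. In queen-less worker 2 their median percentile was 21.0. Their medians lay below the middle of each of the 3 lists.

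The neighbourhood of the regions was then described. In every list the smallest gap between neighbouring peaks was 589 bases. That gap holds within a list, and a member joins peaks of a pair of lists, so its edge can lie nearer to another queen-right worker peak. The distance of a member to a region called in all 6 lists had a median of 3172 bases, with the middle 50% between 1151 and 10315 bases. The median was 2690 bases over all regions called in fewer than 6 lists, 2881 bases for regions called only in queen-less workers and 6547 bases for those called only in queens.

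Within 1 kb of a region called in all 6 lists lay 98 of the 461 regions, or 21.3% (exact 95% binomial interval 17.6% to 25.3%, covering counting error only). The share was 25.3% over all regions called in fewer than 6 lists, 24.8% for queen-less workers alone and 17.0% for queens alone. Another 90 regions (19.5%) lay over 10 kb from such a region on the same scaffold, and 28 (6.07%) were on scaffolds with none. Most members, like most partly called regions, thus lay farther than 1 kb from a region called in all 6 lists.

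**Figure D2:**
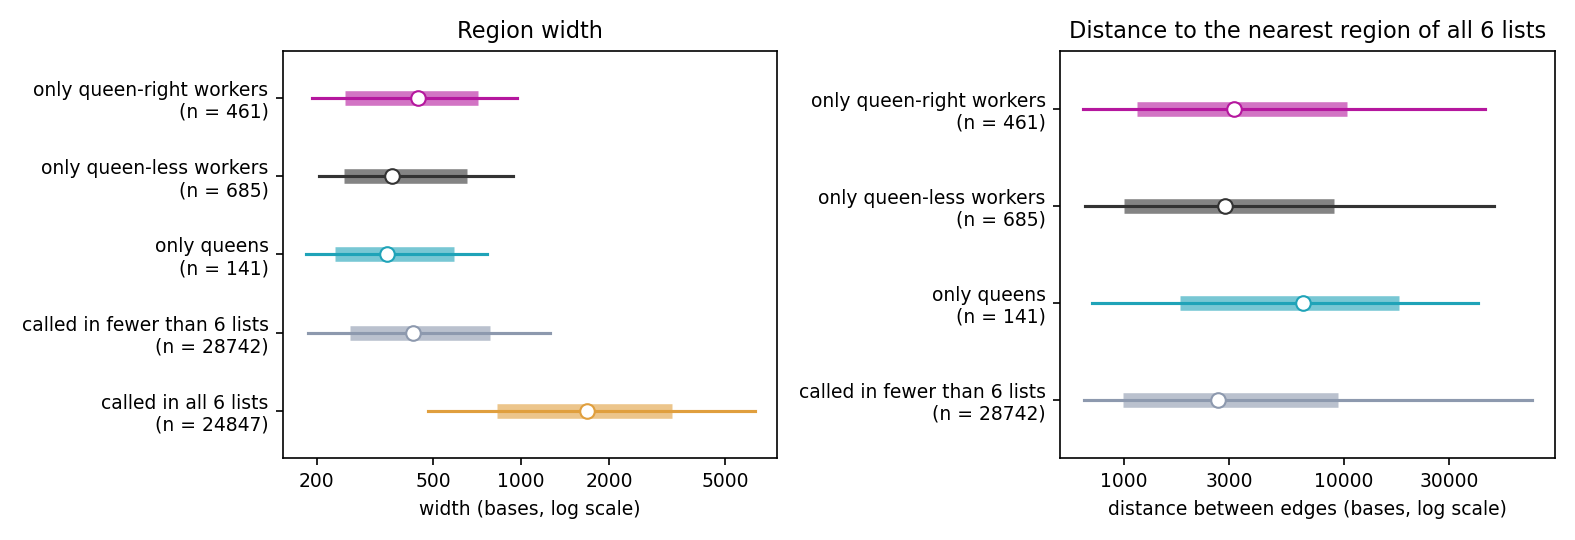
Region width (left, bases, log scale) and distance from a region's edge to the nearest region called in all 6 lists (right, bases, log scale), for the named sets; circles are medians, thick bars the middle 50% and thin lines the 10th to 90th percentile. The 461 regions have a median width of 445 bases, against 1681 in regions called in all 6 lists, and a median distance of 3172 bases.

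The immediate neighbours on the scaffold were counted next. Of the 877 neighbours of members, counted on each side, 299 (34.1%) were called in all 6 lists, against 36.2% for the neighbours of all regions called in fewer than 6 lists and 60.3% for those of regions called in all 6. A region of all 6 lists lay on both sides of 62 members (13.4%). For all regions called in fewer than 6 lists this was 15.96%. It was 14.2% for regions called only in queen-less workers and 11.3% for those called only in queens. The stretch around a member that held no peak of the 4 other lists had a median length of 6042 bases, and its middle 50% ran from 3245 to 15513 bases. For 40 members no peak of the other lists followed before an end of the scaffold.

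Distances to peaks of the 4 other lists were counted for the members only, and overlap was excluded by the rule. At least 1 lay within 1 kb of 168 members, or 36.4% (exact 95% binomial interval 32.0% to 41.0%), and within 5 kb of 401 members (87.0%). Within 500 bases, 12 members (2.60%) had one. No such share was computed over other regions, so these counts are not read as a trait of the members. By list, a peak lay within 1 kb of 149 members in queen-less worker 2, of 106 in queen 1, of 101 in queen-less worker 1 and of 88 in queen 2. Queen-less worker 2 had the most covered bases of these 4 lists and queen 2 the fewest.

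Around the members, the queen-right worker lists covered more than the others, relative to each list's own level. In the 5 kb on each side, outside the member itself, peaks of queen-right worker 1 covered 17.2% of the bases and those of queen-right worker 2 11.6%. The values were 10.3% in queen-less worker 1, 15.03% in queen-less worker 2, 10.7% in queen 1 and 8.71% in queen 2. Each list covered less here than over the whole span of the scaffolds, where its share ran from 22.2% in queen-right worker 2 to 35.4% in queen-less worker 2. The surroundings of the members were thus covered less than the whole span in all 6 lists, as were those of the regions private to the other groups. Part of this is built in, since the span includes the regions called in all 6 lists and peaks of a list lie at least 589 bases apart. No such value was computed over all regions called in fewer than 6 lists, so it is not read as a trait of the members.

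Divided by the share over the whole span, the flanks had a ratio of 0.585 in queen-right worker 1 and 0.522 in queen-right worker 2. The 4 other lists had ratios of 0.358 in queen 2, 0.373 in queen 1, 0.384 in queen-less worker 1 and 0.424 in queen-less worker 2. The queen-right workers did not overlap with the others. The regions called only in queen-less workers gave a like picture with the roles exchanged, at 0.580 and 0.586 for the queen-less pair, 0.550 and 0.502 for the queens, and 0.467 and 0.465 for the queen-right pair. Around the regions called only in queens, the queens had ratios of 0.465 and 0.418 and the queen-less pair 0.466 and 0.420, so those groups overlapped, while the queen-right pair had 0.315 and 0.327. The regions were chosen on the same lists, so no test of these ratios was made.

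**Figure D3:**
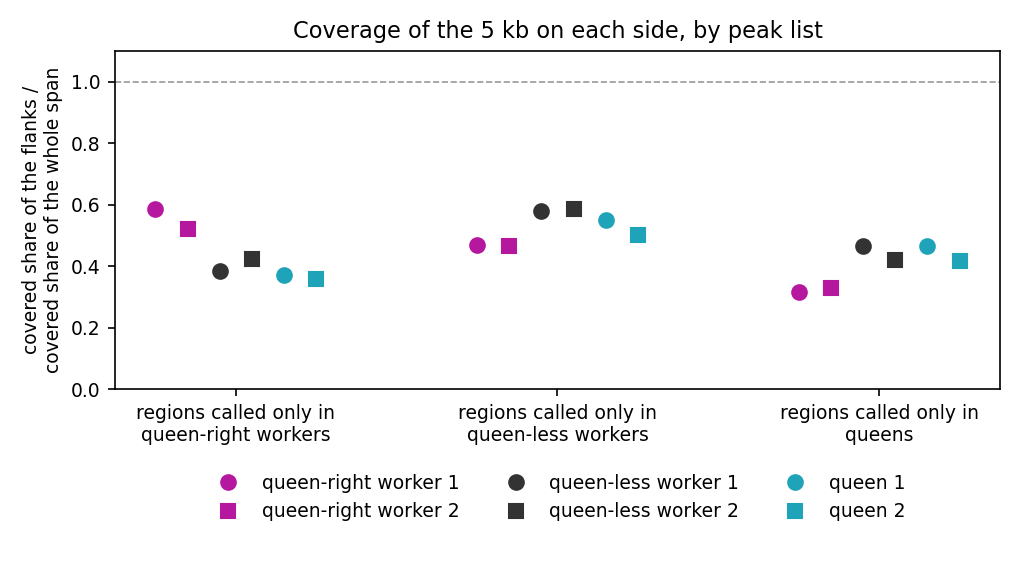
Share of bases under peaks in the 5 kb on each side of a region divided by the share over the whole span of the scaffolds (y axis, ratio), for the 6 lists and for regions called only in queen-right workers, only in queen-less workers and only in queens; each point is 1 list and the dashed line marks a ratio of 1. Around the queen-right worker regions the queen-right worker lists stand at 0.585 and 0.522, above the 4 others.

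Along the assembly the members were spread widely. They lay on 205 of the 1834 scaffolds with a peak, and those 205 made up 71.3% of the 220 Mb span. On 103 scaffolds there was a single member. The 10 scaffolds with most members held 84 of them (18.2%), against 15.5% for the regions called only in queen-less workers and 23.4% for those called only in queens. Over the whole span this was 2.09 members per Mb. Scaffolds with a span of at least 1 Mb numbered 64, of which 53 held a member, with a median of 1.32 and a range of 0 to 7.88 members per Mb.

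Members were counted on short scaffolds as well. Scaffolds with a span under 1 Mb held 280 members (60.7%), against 49.7% of all merged regions, 43.4% of regions called in all 6 lists and 47.3% of the span. For the regions called only in queen-less workers this was 58.0%, and for those called only in queens 46.8%. On scaffolds under 100 kb lay 35 members (7.59%), against 5.92% of all merged regions.

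Of the members, 12 (2.60%) followed another with no other region between them, while members made up 0.860% of all merged regions. The count was 24 (3.50%) for queen-less workers alone and 1 (0.709%) for queens alone, which made up 1.28% and 0.263% of all merged regions. A second member lay within 5 kb of 32 members (6.94%), and the median distance to the next member was 117290 bases. There were 10 runs of 2 and 1 run of 3.

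The run of 3 lay on NW_003378170.1 and is shown as the longest run, not as a typical case of the flanks. Its first member, from 530939 to 531382, was weak, with scores of 15 in both queen-right workers. The second, from 532380 to 533331, had scores of 69 and 25, and the third, from 533968 to 534209, scores of 66 and 33. In queen-right worker 1 the second and the third ranked at percentiles 94.5 and 93.2. The nearest peak of the 4 other lists lay 691 bases from the run.

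The window of 30 kb around this run was covered more in the queen-right workers. Their peaks covered 18.9 kb in queen-right worker 1 (63.0%) and 11.6 kb in queen-right worker 2 (38.6%). The 4 others covered 4.73 kb (15.8%) in queen 2, 5.61 kb (18.7%) in queen-less worker 1, 6.40 kb (21.3%) in queen 1 and 8.51 kb (28.4%) in queen-less worker 2. All 6 lists had peaks on both sides of the run. The whole window held between 10 and 13 peaks per list, counting those in the members. Over the scaffold as a whole the lists did not separate in this way, with 6.24% and 4.82% of its span covered in queen-right workers 1 and 2 and between 4.39% and 7.27% in the others. Outside the 3 members the window was covered to 60.9% and 36.0% in queen-right workers 1 and 2 and to between 16.7% and 30.01% in the others. The run was picked as the longest of queen-right worker calls, so its window is a description.

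**Figure D4:**
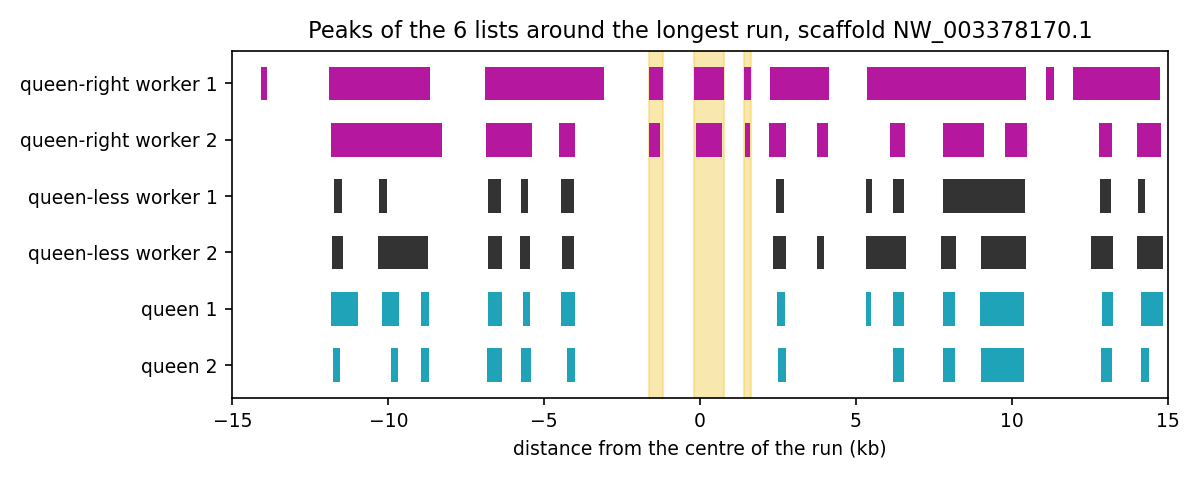
Peaks of the 6 lists (bars, 1 row per list) around the longest run of members on scaffold NW_003378170.1, by distance from the centre of the run (x axis, kb); shaded bands mark the 3 members. Peaks of queen-right worker 1 cover 63.0% of the 30 kb shown and those of queen 2 15.8%, with 10 and 12 peaks.

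By count, most members lay on NW_003377939.1, a scaffold with a span of 1922 kb, 401 regions and 178 regions called in all 6 lists. Its 12 members ran from 222525 to 1825611. They were 197 to 1150 bases wide, with scores of 15 to 49 (median 26.5) in queen-right worker 1 and 11 to 82 (median 21.5) in queen-right worker 2. The strongest in queen-right worker 2, from 283296 to 283524, had scores of 46 and 82 and lay 3139 bases from the nearest peak of another list. The widest, from 269489 to 270638, had scores of 37 and 29. This scaffold held 6 regions called only in queen-less workers and 1 called only in queens as well, and its coverage was alike in all lists, at 0.732 to 0.803 of each list's own share over the whole span.

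By density, among scaffolds with a span of at least 100 kb, NW_003378234.1 stood first. It had 5 members in 106 kb, or 47.3 per Mb, and only 15 regions in all, none of them called in all 6 lists. Queen-right worker 1 had 13 peaks there and queen-right worker 2 had 8, queen-less worker 2 and queen 1 had 2 each, and queen-less worker 1 and queen 2 had none. Peaks covered 6.65% of it in queen-right worker 1, 3.47% in queen-right worker 2, 0.384% in queen-less worker 2 and 0.408% in queen 1. The scaffold was picked for its density of members, which add to the queen-right worker values and by rule add nothing to the other 4 lists. Outside the members, the share was 4.20% in queen-right worker 1, 1.83% in queen-right worker 2, 0.395% in queen-less worker 2 and 0.419% in queen 1.

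The members on NW_003378234.1 differed in strength. The region from 46272 to 46562 scored 64 in queen-right worker 1 and 20 in queen-right worker 2, and that from 49663 to 49911 had 47 and 36. The region from 75868 to 76677 had 19 and 19, that from 90438 to 91161 had 32 and 13, and that from 104927 to 105623 had 28 and 14. The last held the farthest peak on the scaffold, which sets its span. Their nearest peaks in other lists lay between 4833 and 14496 bases away, against a median of 1318 bases over all members.

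In all, 4 scaffolds held at least 10 members, and the other 3 were named after their values were seen. NW_003377912.1 held 11 members in 532 kb, spread from 2438 to 520809, with 3 regions called only in queen-less workers and 0 called only in queens. NW_003378186.1 held 10 members in 619 kb, from 25828 to 535065, and 0 regions of either other kind. Relative to its own share over the whole span, the cover of NW_003378186.1 was 0.168 and 0.189 for the queen-right pair, against 0.148 and 0.114 for the queen-less pair and 0.111 and 0.0605 for the queens. On NW_003377912.1 the ratios were 0.762 and 0.596 for the queen-right pair, 0.541 and 0.549 for the queen-less pair and 0.486 and 0.419 for the queens. On NW_003378170.1, which held 10 members and the longest run, they were 0.212 and 0.217 for the queen-right pair, 0.222 and 0.205 for the queen-less pair and 0.201 and 0.181 for the queens. The queen-right pair thus lay above the other 4 lists on NW_003377912.1 and NW_003378186.1 and overlapped with them on NW_003378170.1 and NW_003377939.1. Choosing scaffolds by their members favours the queen-right lists by construction. Leaving out the members does not undo that choice, so the values outside them are a description. On NW_003377912.1 the lower value of the pair was then 0.565 (queen-right worker 2), and the highest other was 0.555 (queen-less worker 2). On NW_003378186.1 these were 0.153 (queen-right worker 1) and 0.149 (queen-less worker 1), so the margins were small. The longest scaffold with no member, NW_003378179.1 with a span of 2320 kb, had 262 of its 394 regions called in all 6 lists and was covered to between 40.5% and 66.9%.

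**Figure D5:**
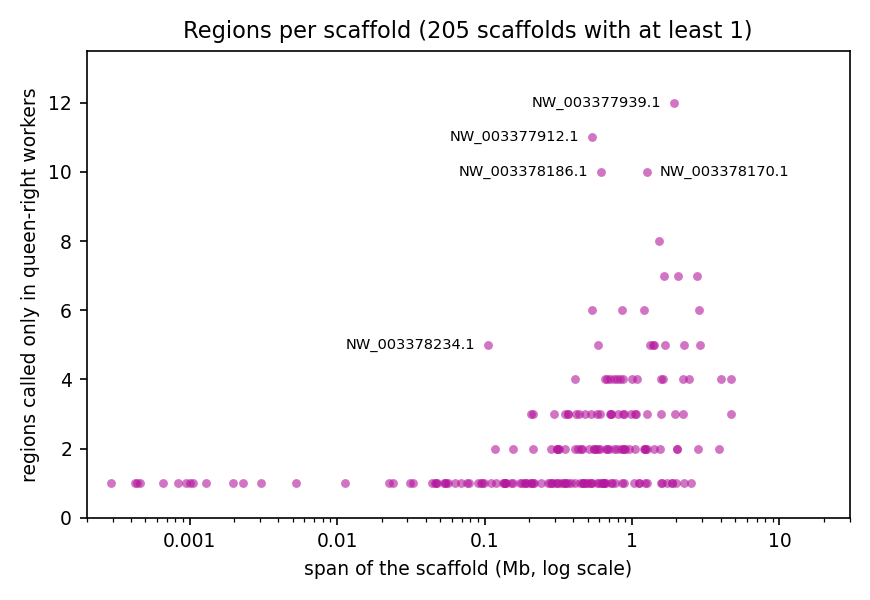
Number of members per scaffold (y axis) against the span of the scaffold (x axis, Mb, log scale), for the 205 scaffolds with at least 1 member; each point is 1 scaffold, and those with at least 10 members or the highest density are named. NW_003377939.1 holds 12 members, and NW_003378234.1 holds 5 in 106 kb.

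A few members were remote from any shared domain. The farthest on a scaffold with such domains lay on NW_003378039.1 from 3986112 to 3986660, at 248018 bases from the nearest region called in all 6 lists, scoring 13 in queen-right worker 1 and 14 in queen-right worker 2. The farthest peak end on the scaffold was at 3996 kb, and a peak of queen-less worker 1 lay 3549 bases from it. The next, on NW_003378187.1 from 291102 to 291509, lay 173098 bases away, with scores of 14 and 13. Its nearest peak in any of the 4 other lists was 7491 bases off, in queen-less worker 2, and the nearest in queens 1 and 2 were 69900 and 93130 bases off. Both were weakly scored but matched closely, with 88.9% and 91.9% of the longer peak shared.

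The strictest reading kept 87 members (18.9%), on 70 scaffolds. These had a score of at least 20 in both queen-right workers, at least 50% of each peak under the other and no peak of the 4 other lists within 1 kb. They were narrow, with a median width of 240 bases, and 60 of the 87 were under 300 bases. Their median scores were 33 and 30 in queen-right workers 1 and 2, and their median distance to a region called in all 6 lists was 9758 bases. Narrow regions made up a larger part of the 87 than of the 461. The limits on score and overlap kept regions under 300 bases more often than those of 600 bases or more. The limit of 1 kb raises the distance by construction. This setting was chosen after the data were examined, so its widths and distances are a description.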

How the data were processed

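The authors deposited 1 broad peak list per ChIP sample, giving the place and the score of every peak. The unit of the deposited score is not named in the lists, so it served for ranks within a list and for limits. The peak names give broad calling at 0.1 with an extension of 147 bases. The submitters' processing notes name Bowtie 1.0, SAMtools 1.5, MACS2 and bedtools. The genome build and how the 3 input samples entered the calls are not given in the sources used here, and the inputs were not analysed here. The lists hold no read counts, so depth is unknown. A deeper library gives more covered bases at the same threshold, which bears on every call and absence.

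Lists were merged at 1 shared base. A percentile is the mid-rank of the highest-scoring peak of a region in its list. Distances are bases between edges on a scaffold, within 1 kb meaning under 1000 bases, and a scaffold's span is its farthest peak end. Positions count from 1. Merging and distances were tested on simulated data. Named regions were the 5 highest by the lower percentile (ties by scaffold name), the 3 widest, the longest run, the 2 farthest from a shared region, the scaffolds with most members and highest density, and 1 member nearest to the score limit, read as the lowest sum of scores and, among ties, the first by scaffold name. The members and these rules were chosen with earlier results of these data known. No test was made across regions, which are not replicates, and 2 samples stood in each group. Alternatives were score limits, equal list lengths, equal covered bases, joining, margins, overlap, scaffolds in all lists and leaving out each sample. Scripts ran under Python 3.11.15 with SciPy 1.17.1, NumPy 2.4.6 and, for plots, matplotlib 3.10.9.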

Additional observations from a re-analysis of the deposited data

How the results depend on the processing

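The count of 461 regions moved past 1.5 times under 9 of 16 settings. It was 212 with a score of at least 20 in all lists and 164 with that limit in the queen-right workers only. Equal covered bases gave 1645, joining peaks closer than 1 kb gave 282, and no other peak within 1 kb gave 293. Leaving out queen-right worker 1, queen-right worker 2 or queen-less worker 2 gave 1346, 2610 and 1540. Leaving out any other 1 sample gave 479 to 526, which is within 1.5 times. The cut to equal covered bases kept 50922 peaks of queen-right worker 2 and 18270 of queen-less worker 2, which makes absence from the latter easier, and only 121 of the 461 members shared a base with its 1645 regions. With all 3 limits together, a setting chosen after the data were examined, 87 remained.

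The median width of 445 bases became 279.5 and 260 at the score limits, 329 with 50% reciprocal overlap and 240 with all 3 limits, and ran from 253 to 452 with 1 sample left out. The share within 1 kb of a region of all 6 lists was 14.6% with a score of at least 20 in all lists, 11.8% at equal covered bases and 17.5% to 26.5% with 1 sample left out. The share with another list's peak within 1 kb was 31.1%, 28.3% and 33.5% to 43.9% in the same order. Margins and joining at 1 kb set these shares to 0% or, for regions of all 6 lists with a 1 kb margin, 1.02%, by construction. No paired analysis was possible because no result comes from a test.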

Other observations

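Regions called in only 1 queen-right worker list and in no other were more numerous than those called in both, with 2126 in queen-right worker 1 and 799 in queen-right worker 2. They were narrower still, with median widths of 284 and 229 bases. Those of queen-right worker 1 had a median percentile of 12.0 in its list, and 75% of them lay at or below 25.9. Those of queen-right worker 2 had a median percentile of 24.4 but reached far higher, with 25% of them at or above 74.3 and 10% at or above 98.6. Scaffolds without any region called in all 6 lists held 135 of the 799 (16.9%), against 75 of the 2126 (3.53%) and 28 of the 461 called in both (6.07%).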
